A study of Mus musculus with 12 samples.

Results

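The genes described here carry glucose into the cell, break it down to pyruvate and lactate, and decide whether pyruvate enters the mitochondrion. They are 33 genes chosen by name, and they hold 34 of the 54447 rows of the count table, because the symbol Aldoa stands for 2 rows. They were grouped by pathway step into glucose transport, lactate transport, glucose phosphorylation and isomerisation, phosphofructokinase, control of fructose 2,6-bisphosphate, triose formation, lower glycolysis, lactate dehydrogenase, the pyruvate dehydrogenase kinases, and pyruvate dehydrogenase with the pyruvate carrier. RNA sequencing had been done on NIH3T3 cells, a mouse fibroblast line that the labels call embryonic fibroblasts, under normoxia. The cells carried a lentiviral construct in which doxycycline (dox) switches on N-VEGF, the amino-terminal piece of the long VEGF protein, or NLS-N-VEGF, the same piece joined to a nuclear localization signal. The 4 groups were NLS-N-VEGF cells and N-VEGF cells, each untreated (without dox) or with dox, with 3 libraries in each. All 4 groups carry the construct and the Tet-on system and came from selected pools of infected cells, no group lacks the construct, and the dox groups were exposed for less than a day.

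Each label ends in a library number and a second number joined to it by the mark _, here called the suffix. In every group, libraries 1 and 2 carry the suffix _120519 and a further library 2 carries the suffix _290419, so that 8 libraries have the first suffix and 4 have the second. The labels do not say what the suffix stands for. Nothing in them says that the libraries of a group came from separate cultures, so the p-values measure the spread between libraries, which may be technical.

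Glycolysis converts glucose to pyruvate in the cytosol, and lactate dehydrogenase then interconverts pyruvate and lactate. Pyruvate that enters the mitochondrion through its carrier meets pyruvate dehydrogenase, which the pyruvate dehydrogenase kinases switch off by phosphorylation. Under low oxygen the hypoxia-inducible factor (HIF) raises transcription of glucose transporters, of most glycolytic enzymes, of Ldha and of Pdk1. The question the design puts to these genes is whether N-VEGF, or N-VEGF carried into the nucleus, shifts them without hypoxia.

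Total counts were between 13549331 and 18982127 per library. The row of the construct insert held 5 to 12 counts in the libraries without dox, 35 to 173 in NLS-N-VEGF cells with dox and 121 to 268 in N-VEGF cells with dox. In both dox groups the suffix _290419 library had the highest insert level, at 10.2 and 17.9 CPM (counts scaled to the normalised library total), against 2.57 to 8.07 CPM in the dox libraries with suffix _120519. Fibroblast markers summed to between 11480 and 14340 CPM in all libraries, and 10 of the 12 were high enough to be tested. All 12 had some counts, as did every epithelial and endothelial marker. Markers of epithelium, endothelium, blood cells and muscle each summed to at most 6.34 CPM, with Cd3e, Myod1 and Myog at 0 counts throughout. Neural markers summed to 20.6 to 33.2 CPM, and Sox10 was at 0. Library 1 of untreated N-VEGF cells stood apart: the members took 1.64% of its counts, against 1.23% to 1.44% in the other 11 libraries, and it had the fewest detected genes, at 19976. Genes of the tricarboxylic acid cycle and the pentose phosphate pathway also summed highest in this library, at 3305 and 1295 CPM. The other 11 libraries reached at most 2926 and 1166 CPM. The rest of the pyruvate dehydrogenase complex was not highest there, at 372.1 CPM, with 362.9 to 425.0 CPM over all libraries. The excess was thus not particular to the members. Values without this library are given beside the results that it moves most.

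The cells expressed a complete path from glucose to lactate. Per kilobase of merged exon, the level was highest for Pkm, the pyruvate kinase, at 787 ± 46.3 CPM per kilobase (SD, n = 12). Pgk1, a kinase that yields ATP, followed at 743 ± 87.5, then the mutase Pgam1 at 594 ± 58.4 and the lactate dehydrogenase subunit Ldha at 444 ± 72.7 CPM per kilobase. The ranges of Pkm and Pgk1 overlapped, as did those of Pgk1 and Pgam1, so their order among themselves was within the spread of the libraries. Gapdh at 319 ± 38.2, the aldolase Aldoa at 259 ± 26.3, the triose isomerase Tpi1 at 223 ± 37.4, the enolase Eno1 at 166 ± 16.6 and the isomerase Gpi1 at 103 ± 8.03 CPM per kilobase came next. Sequence shared with other genes bears on these values. A share of the 80-base windows of Pgk1 (52.5%), Pgam1 (34.6%), Eno1 (22.4%), Gapdh (22.2%) and Mpc1 (20.4%) occurs in other annotated transcripts, and reads from such windows may have been counted elsewhere. Eno1b, a near copy of Eno1, held 3498 to 5701 counts. Mpc1, Pdha1 and Gpi1 also share 23.1%, 16.1% and 11.5% of their exon bases with genes on the other strand, and the strand setting of the counting was not stated.

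**Figure D1:**
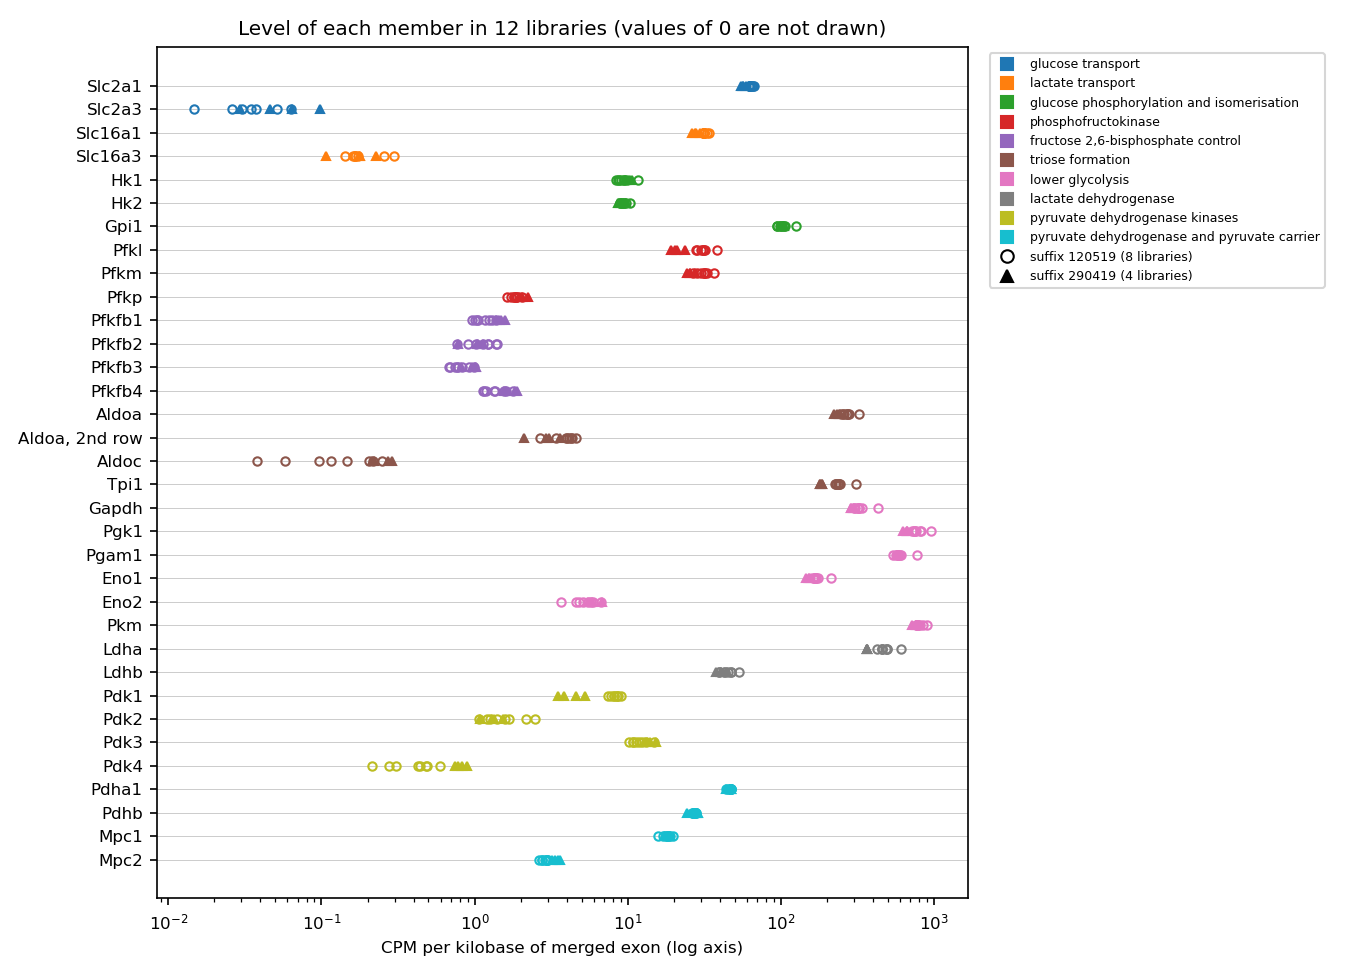
Level of each row in every library, in CPM per kilobase of merged exon on a log axis, coloured by pathway step. Open circles are the 8 libraries with suffix _120519 and filled triangles the 4 with suffix _290419. Pkm sits highest and Slc2a3 lowest, and the triangles of Pdk1 and Pfkl lie left of all their circles.

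Most steps with several isozymes had 1 or 2 that made up nearly all of the transcript per length. Slc2a1, the GLUT1 transporter of basal glucose uptake, was at 61.4 ± 3.66 CPM per kilobase. Slc2a3, the high-affinity GLUT3, was at 0 to 0.710 CPM and fell below the filter on low counts, so that 33 of the 34 rows were tested. Its level was near the limit that 3 counts allow, 0.158 to 0.221 CPM by library, which covers counting error only. Likewise Slc16a1, the MCT1 lactate transporter, was at 30.5 ± 2.33 CPM per kilobase and Slc16a3, the MCT4 exporter of glycolytic cells, at 0.184 ± 0.0510. Hk1 and Hk2, which trap glucose as glucose 6-phosphate, were present at 9.67 ± 0.947 and 9.27 ± 0.484 CPM per kilobase, a difference within the spread of the libraries. Pfkm and Pfkl, the muscle-type and liver-type phosphofructokinases, were also near each other at 29.4 ± 3.66 and 27.8 ± 5.72, with the platelet-type Pfkp at 1.90 ± 0.155 CPM per kilobase. Ldhb was at 43.5 ± 4.51, and its share of lactate dehydrogenase transcript per length was 7.5% to 10.8%. Among the pyruvate dehydrogenase kinases the order was Pdk3 at 12.6 ± 1.66, Pdk1 at 6.93 ± 2.03, Pdk2 at 1.51 ± 0.432 and Pdk4 at 0.540 ± 0.228 CPM per kilobase. The 4 Pfkfb genes, whose enzymes make and degrade the phosphofructokinase activator fructose 2,6-bisphosphate, lay between 0.85 and 1.5 CPM per kilobase. Merged exons join those of all annotated isoforms, so these orders and shares depend on that length. It is 6675 bases for Pfkl and 3340 for Pfkm, and 7779 for Pdk1 and 2561 for Pdk3. In CPM with suffix _120519, Pfkl was above Pfkm and Pdk1 above Pdk3.

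Dox did not move any member past the threshold in either population. In NLS-N-VEGF cells, 0 of 33 tested rows were called by edgeR at an adjusted p under 0.05, where 0.022% of all 13608 genes tested were called, and 0 passed at an unadjusted p under 0.05. In N-VEGF cells again 0 of 33 were called, against 0.0367% of all genes, and 1 passed unadjusted. For the mean of both populations the count was 0 of 33, against 0.0588% of all genes, and 2 passed unadjusted. Of all genes, 2.34%, 1.48% and 3.11% passed unadjusted in the 3 comparisons. DESeq2 called none of the members in these 3 comparisons. The same was true of a fit with the replicate block, which sets each dox library against its partner of the same number and suffix. That fit called 0.125%, 0.11% and 0.566% of all genes in the same 3 comparisons, and 2, 1 and 2 members passed unadjusted (Pfkfb4 and Ldhb, then Pdk2, then Ldhb and Pdk2). Unadjusted, 7.27%, 5.4% and 9.3% of all genes passed with the block, so these counts do not set the members apart. The smallest adjusted p among the members was 0.554 in NLS-N-VEGF cells, 0.583 in N-VEGF cells and 0.282 for the mean. The median log2 fold change of the members was -0.03 in NLS-N-VEGF cells and -0.06 in N-VEGF cells, beside medians of 0.00 over all genes tested. Both medians changed sign when single libraries were left out, with ranges from -0.0708 to 0.0165 and from -0.128 to 0.0118.

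**Figure D2:**
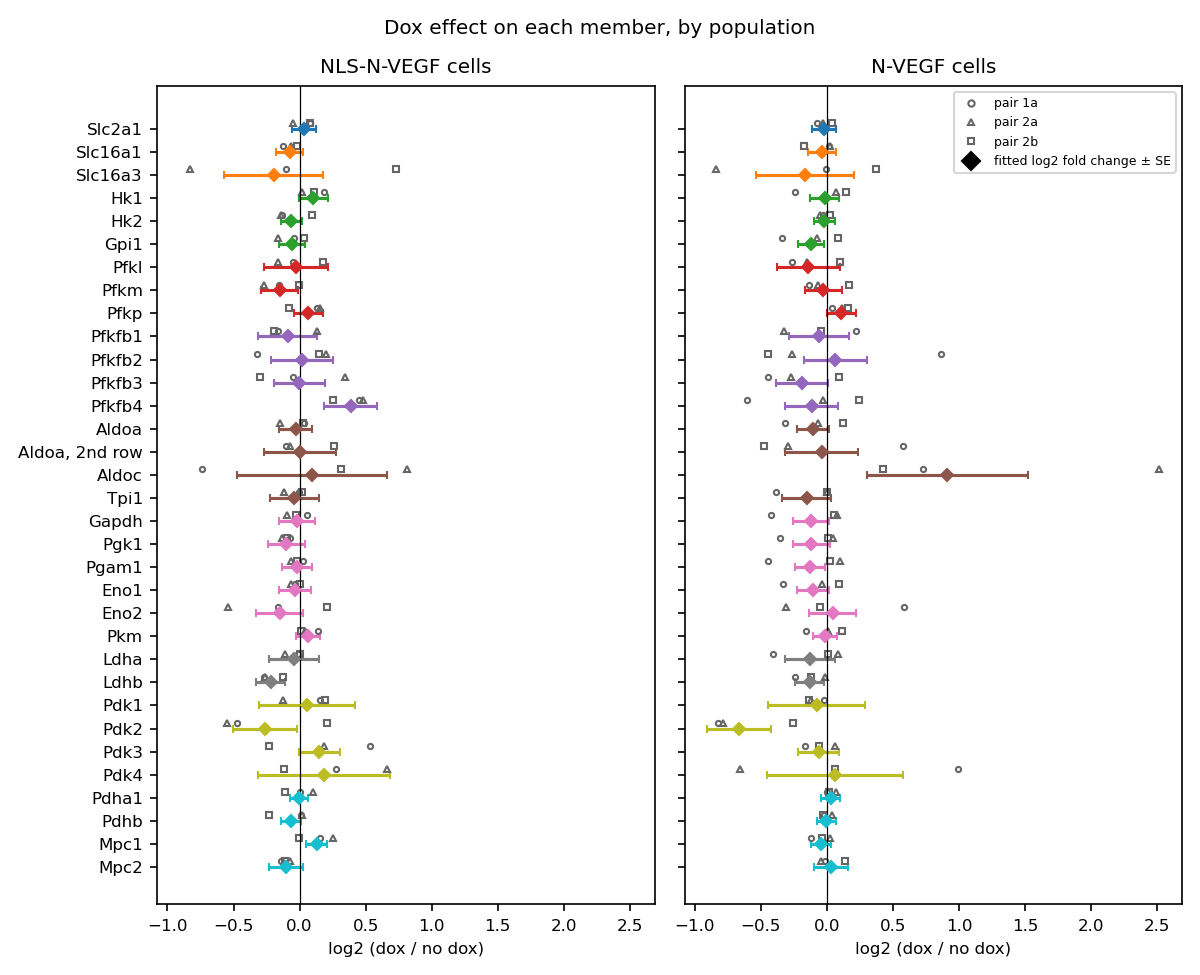
Log2 ratio of dox to no dox for each tested row, in NLS-N-VEGF cells (left) and N-VEGF cells (right). Diamonds with bars are the fitted log2 fold change ± SE, and small grey symbols are the ratios of the 3 pairs of libraries with the same number and suffix (a stands for _120519 and b for _290419). Most diamonds lie near 0, and the largest departures are those of Aldoc (0.91) and Pdk2 (-0.66) in N-VEGF cells.

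For the well-expressed members the data bound the mean dox effect, as far as the spread between libraries goes. The 95% interval of that effect was taken for the 24 rows with a mean of at least 10 CPM. In 23 of them it lay within a log2 fold change of 0.5 on both sides. That was so for 21 rows in NLS-N-VEGF cells alone, 20 in N-VEGF cells alone and 15 for the difference of the dox effects. Slc2a1 had a mean dox effect of 0.01 with an interval from -0.13 to 0.15, Pkm one of 0.02 from -0.12 to 0.17, and Ldha one of -0.09 from -0.38 to 0.20. For the mean effect the exception was Pdk1, with -0.57 to 0.55, whose libraries differed by suffix within every group. With the replicate block, which takes up that difference, the SE of the Pdk1 effect was 0.0697 in place of 0.259. The 3 pairs by number gave median dox ratios of -0.0335, -0.0683 and 0.00439 on the log2 scale in NLS-N-VEGF cells. In N-VEGF cells they gave -0.135, -0.0317 and 0.0216, the first being the pair that holds the library that stood apart.

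Ldhb, the subunit that favours conversion of lactate to pyruvate, was the only member whose dox library was below its partner in all 6 pairs. The share of all genes with like signs in 6 pairs was not taken. In NLS-N-VEGF cells it was at 74.6, 74.6 and 69.8 CPM untreated and at 62.0, 62.1 and 64.1 CPM after dox. In N-VEGF cells it was at 84.1, 67.3 and 63.7 CPM untreated and at 71.2, 66.6 and 58.8 CPM after dox. The groups did not overlap in NLS-N-VEGF cells and did in N-VEGF cells. The mean log2 fold change was -0.17 (SE 0.0765) with an unadjusted p of 0.0418, and the adjusted p was 1 in edgeR and 0.315 with the replicate block. Without library 1 of untreated N-VEGF cells, the one at 84.1 CPM, the Ldhb effect was 0.00 (SE 0.0882) in N-VEGF cells and the mean -0.11 (SE 0.0591).

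Pdk2, one of the kinases that turn off pyruvate dehydrogenase, had the lowest log2 fold change among the members in both populations. It was at 7.86, 6.90 and 4.08 CPM in untreated N-VEGF cells and at 4.44, 4.01 and 3.42 CPM after dox, lower in each pair with some overlap of the groups. In NLS-N-VEGF cells it was at 5.29, 4.97 and 4.21 CPM untreated and at 3.80, 3.39 and 4.86 CPM after dox, where 2 of the 3 pairs were lower. The fitted log2 values were -0.66 (SE 0.242) for N-VEGF cells and -0.26 (SE 0.244) for NLS-N-VEGF cells. Neither passed after adjustment. Leaving out library 1 of untreated N-VEGF cells gave -0.47 (SE 0.247) for Pdk2 there. When only the libraries with suffix _120519 were fitted, the mean effect on Pdk2 was -0.66 with an adjusted p of 0.0336, where 135 of all genes were called, and it was the sole member to pass in any alternative of the dox comparisons.

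Pfkfb4, which controls fructose 2,6-bisphosphate and is a HIF target, had the highest log2 fold change in NLS-N-VEGF cells at 0.39 (SE 0.201). Its levels were 5.52, 5.60 and 7.57 CPM untreated and 7.55, 7.80 and 9.0 CPM after dox, higher in 3 of 3 pairs, and the groups overlapped by a single pair of libraries. N-VEGF cells gave 8.74, 6.65 and 7.81 CPM untreated and 5.75, 6.51 and 9.24 CPM after dox, which was higher in 1 of 3 pairs. The difference of the effects was 0.50 (SE 0.283), with an adjusted p of 1. Its 95% interval ran from -0.12 to 1.1, and with the replicate block from 0.06 to 0.97 around 0.51 (SE 0.216), also with an adjusted p of 1. The difference was 0.40 (SE 0.294) without library 1 of untreated N-VEGF cells. Of the 33 rows, 3 were higher and 5 lower in all 3 pairs of NLS-N-VEGF cells, and 3 and 3 in N-VEGF cells. The share of all genes with like signs in 3 pairs was not taken.

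Leaving out members whose mean was under 1 CPM, the remaining extremes of the dox comparisons were within or near their SE. In NLS-N-VEGF cells the next largest log2 fold changes were those of Pdk4 at 0.19 (SE 0.50) and Pdk3 at 0.15 (SE 0.155), and the third lowest was Pfkm at -0.15 (SE 0.140). In N-VEGF cells Pfkp at 0.11 (SE 0.110), Pfkfb2 at 0.07 (SE 0.237) and Pdk4 at 0.07 (SE 0.514) were the highest, and Pfkfb3 at -0.19 (SE 0.194) and Tpi1 at -0.15 (SE 0.188) followed Pdk2 at the low end. Without library 1 of untreated N-VEGF cells, Tpi1 was at 0.08 (SE 0.169), Pfkfb2 at -0.10 (SE 0.241) and Pdk4 at -0.28 (SE 0.508), the signs turned. Aldoc, the brain-type aldolase, lay below that level and had a log2 fold change of 0.91 (SE 0.610) there. For the mean effect, Pfkfb4 at 0.14, Pdk4 at 0.13 and Pfkp at 0.09 stood at the high end and Pgk1 at -0.11 (SE 0.0972) was the third lowest. Without the same library the mean effect was -0.04 (SE 0.340) for Pdk4 and -0.02 (SE 0.0766) for Pgk1.

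Core glycolytic transcripts differed little with dox in NLS-N-VEGF cells. Gapdh, the triose dehydrogenase that was also the reference gene of the study's PCR assays, was at 1342, 1322 and 1216 CPM untreated and at 1393, 1239 and 1192 CPM after dox. Pkm was at 3844, 3818 and 3791 CPM untreated and at 4232, 3934 and 3811 CPM after dox, with a fitted log2 fold change of 0.06 (SE 0.0910). It is among the rows counted above as higher in all pairs of these cells. Hk2, the inducible hexokinase, was at 61.5, 58.5 and 54.3 CPM untreated and at 56.2, 52.9 and 57.8 CPM after dox. The groups overlapped for each of these 3 genes.

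The populations were compared with each other under the same dox condition, and the dox effects were compared between populations. With dox the insert level was 2.57, 2.57 and 10.2 CPM in NLS-N-VEGF cells and 7.55, 8.07 and 17.9 CPM in N-VEGF cells. It was lower in NLS-N-VEGF cells at each number and suffix, though the groups overlapped. After dox, 0 of 33 rows were called between the populations where 0% of all genes were, and no member passed at an unadjusted p under 0.05. Without dox the count was again 0 of 33 beside 0% of all genes, and 1 member, Mpc1, passed unadjusted. The difference of the dox effects gave 0 of 33 beside 0% of all genes, with 0 members unadjusted. DESeq2 called none of the members in these comparisons either, nor did the fit with the replicate block, which called 0.0147% of all genes with dox and 0% in the other 2 comparisons. At an unadjusted p under 0.05 the block passed Pdk1 with dox, Hk1 and Mpc1 without dox and Pfkfb4 for the difference. Of all genes, it passed 4.56% with dox, 3.67% without dox and 3.41% for the difference, also unadjusted. The fit without the block passed 1.18%, 0.603% and 0.852% of all genes in the same order. By the same limit of 1 CPM, with dox, Pdk4 at 0.37 (SE 0.504), the second Aldoa row at 0.32 (SE 0.273) and Pfkfb4 at 0.18 (SE 0.199) were the highest in NLS-N-VEGF cells and Pfkm at -0.17 (SE 0.140), Mpc2 at -0.10 (SE 0.128) and Pdhb at -0.09 (SE 0.0726) the lowest. Without dox, the second Aldoa row at 0.28 (SE 0.273), Eno2 at 0.26 (SE 0.179) and Pdk4 at 0.25 (SE 0.510) were the highest and Pdk2 at -0.38 (SE 0.239), Pfkfb4 at -0.32 (SE 0.201) and Hk1 at -0.19 (SE 0.109) the lowest. Without library 1 of untreated N-VEGF cells these last contrasts were 0.08 for Eno2, -0.09 for Pdk4, -0.18 for Pdk2, -0.22 for Pfkfb4 and -0.07 for Hk1.

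Mpc1, a subunit of the mitochondrial pyruvate carrier, was at 35.2, 32.6 and 36.2 CPM in untreated NLS-N-VEGF cells and at 41.0, 37.2 and 39.6 CPM in untreated N-VEGF cells. The groups did not overlap. With dox the levels were 39.2, 38.7 and 36.0 CPM in NLS-N-VEGF cells and 37.8, 37.8 and 38.6 CPM in N-VEGF cells, and these did overlap. The log2 difference without dox was -0.18 (SE 0.0793), with an unadjusted p of 0.0422 and an adjusted p of 1. It was -0.15 (SE 0.0791) without the library at 41.0 CPM. Mpc1 shares exon bases with an antisense gene, as given above, which held 1 to 14 counts per library. For the difference of the dox effects, Pfkfb4 at 0.50, Pdk2 at 0.40 (SE 0.344) and Pdk3 at 0.21 (SE 0.219) stood at the high end and Eno2 at -0.19 (SE 0.254), Mpc2 at -0.14 (SE 0.181) and Pfkm at -0.13 (SE 0.198) at the low end. Leaving out library 1 of untreated N-VEGF cells, these were 0.21 for Pdk2, -0.01 for Eno2 and -0.27 for Pfkm.

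Between the suffixes of the labels many members differed. In suffix _290419 against suffix _120519, with the group as a term in the model, 17 of the 33 rows were called, 6 higher and 11 lower. Of all 13608 genes tested, 45.6% were called, 22.2% higher and 23.5% lower, so the count of members was close to that of the whole transcriptome and is not a result about glycolysis as such. The median log2 fold change of the members was -0.09, beside 0.01 for all genes. With suffix _290419, 2 rows lay above all libraries of suffix _120519, 10 lay below them all and 21 overlapped. The share of all genes without overlap was not taken, so overlap is given below as description only. The members are described below by step, and the calls within each step are to be read against the shares of all genes called. The members took 1.23% to 1.31% of the counts in the 4 libraries with suffix _290419 and 1.36% to 1.64% in the 8 with suffix _120519. The suffix cannot be told apart from whatever differed between these sets of libraries.

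**Figure D3:**
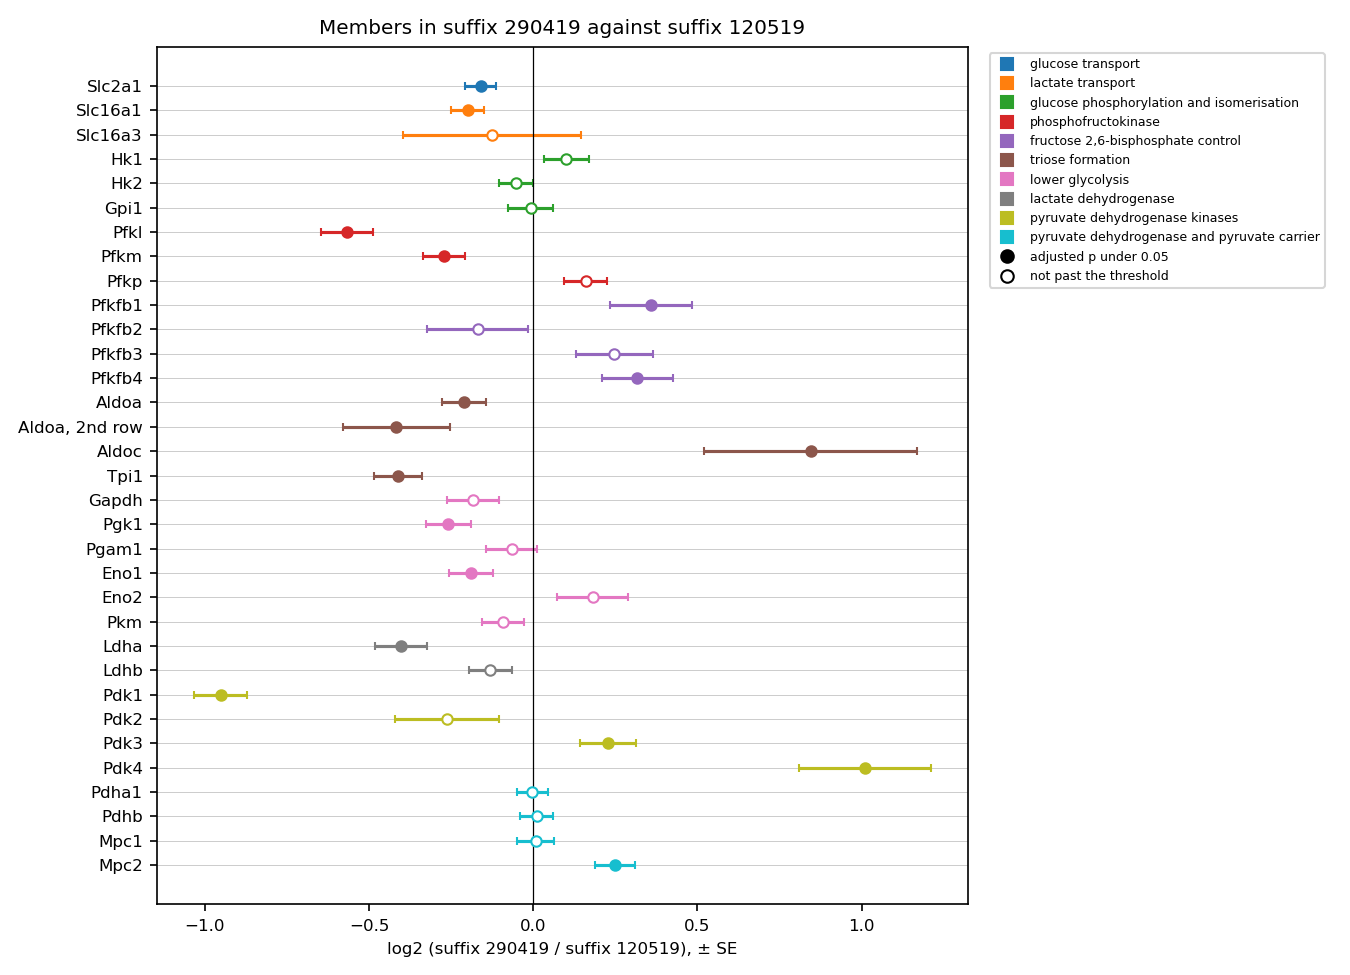
Fitted log2 ratio of suffix _290419 to suffix _120519 for each tested row, with bars for the SE and colours for the pathway step. Filled points passed the adjusted threshold. Pdk1 lies farthest left at -0.95 and Pdk4 farthest right at 1.01, with Pfkl, Tpi1 and Ldha on the left and Hk1, Hk2, Gpi1, Pdha1, Pdhb and Mpc1 near 0.

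The pyruvate dehydrogenase kinases changed in opposite directions. Pdk1, the isozyme known as a HIF target, was at 58.0, 64.5 and 70.4 CPM (lowest, median and highest of 8 libraries) with suffix _120519. With suffix _290419 it was at 35.8 and 40.9 CPM in NLS-N-VEGF cells (untreated, then dox) and at 29.8 and 27.1 CPM in N-VEGF cells (untreated, then dox), the order used for the 4 values of each gene that follows. The sets did not overlap, and the log2 fold change was -0.95 (SE 0.0800, adjusted p = 3.05e-07 in edgeR), to 0.517 of the level. Pdk4, the isozyme known for its induction by fasting and fatty acids, was at 0.754, 1.52 and 2.09 CPM with suffix _120519 and at 3.14, 2.90, 2.62 and 2.75 CPM with suffix _290419. It rose by a log2 fold change of 1.01 (SE 0.201, adjusted p = 0.000737) with no overlap, on a low level. Pdk3, the kinase with the highest level per kilobase of merged exon, was at 26.3, 29.5 and 38.1 CPM with suffix _120519. With suffix _290419 it was at 39.3, 33.4, 35.8 and 34.3 CPM. It rose by 0.23 (SE 0.0851, adjusted p = 0.0375), with overlap, and Pdk2 had -0.26 (SE 0.159, adjusted p = 0.190). The share of Pdk1 in kinase transcript per length was 35.1% to 39.9% with suffix _120519 and 18.6% to 25.4% with suffix _290419, while that of Pdk3 was 49.9% to 57.8% and 63.1% to 71.5%.

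**Figure D4:**
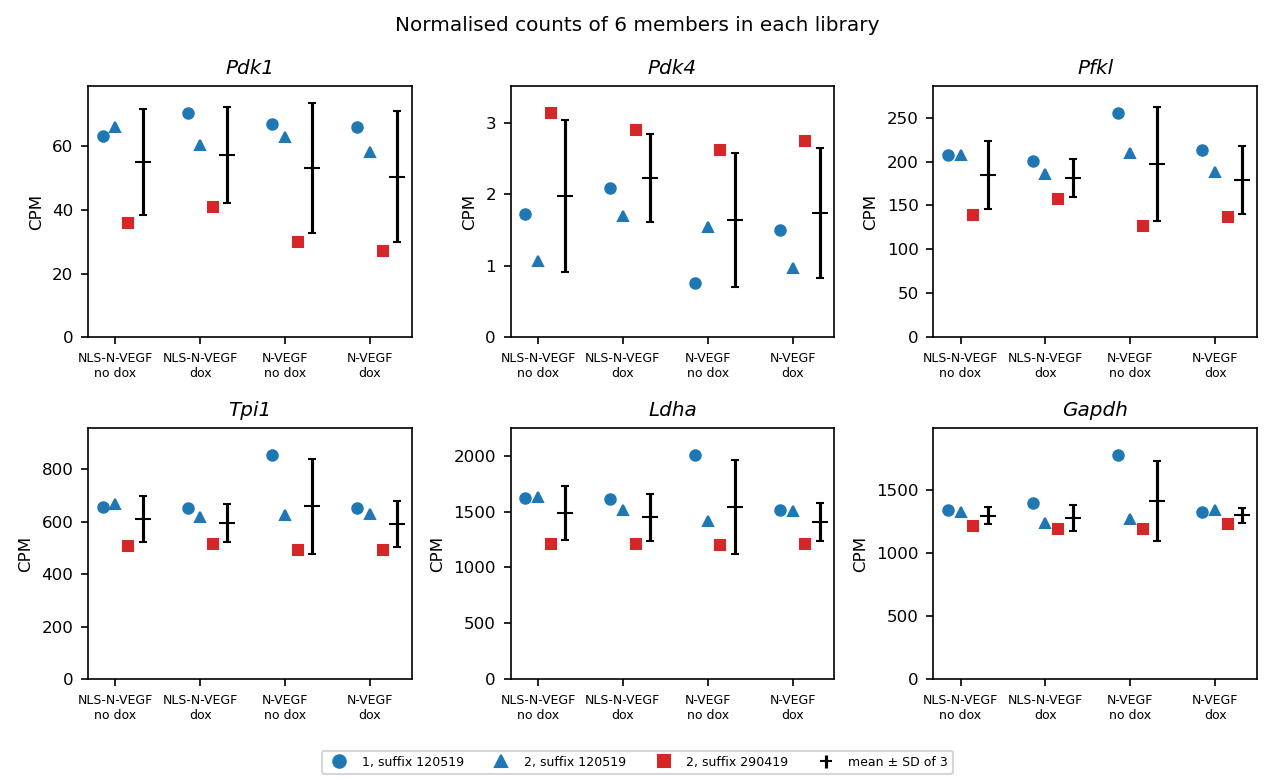
Normalised counts (CPM, axes from 0) of Pdk1, Pdk4, Pfkl, Tpi1, Ldha and Gapdh in each library of the 4 groups. Blue circles and triangles are libraries 1 and 2 with suffix _120519, red squares library 2 with suffix _290419, and black marks the mean ± SD of 3. The red squares are below all blue points for Pdk1, Pfkl, Tpi1, Ldha and Gapdh and above them for Pdk4, and the highest Gapdh, Ldha and Tpi1 points are library 1 of untreated N-VEGF cells.

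Phosphofructokinase, the committed step of glycolysis, was lower in the isozymes of highest level, beside 23.5% of all genes lower. Pfkl was at 185, 207 and 255 CPM (lowest, median and highest of 8) with suffix _120519 and at 139.6, 158, 127 and 137 CPM with suffix _290419, without overlap. Its log2 fold change was -0.57 (SE 0.0794, adjusted p = 3.36e-05). Pfkm was at 88.8, 105 and 122 CPM with suffix _120519 and at 85.2, 85.0, 81.6 and 91.9 CPM with suffix _290419, where 1 library overlapped, and fell by 0.27 on the log2 scale (SE 0.0639, adjusted p = 0.00252). Pfkp had 0.16 (SE 0.0641) and an adjusted p of 0.0526, and passed in some alternatives, among them without library 1 of untreated N-VEGF cells. Pfkl therefore made up 47% to 50% of phosphofructokinase transcript per length with suffix _120519 and 40.8% to 46.4% with suffix _290419.

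Of the 4 genes that set fructose 2,6-bisphosphate, 2 were higher and none lower, beside 22.2% of all genes higher. Pfkfb1 was at 3.84, 4.44 and 5.58 CPM with suffix _120519 and at 6.35, 5.57, 5.95 and 5.76 CPM with suffix _290419, a log2 rise of 0.36 (SE 0.124, adjusted p = 0.0266). Pfkfb4 was at 5.52, 6.58 and 8.74 CPM and then at 7.57, 9.0, 7.81 and 9.24 CPM, a log2 rise of 0.32 (SE 0.109, adjusted p = 0.0258). Both sets overlapped, and DESeq2 gave adjusted p-values of 0.0698 for Pfkfb1 and 0.0701 for Pfkfb4, whose calls held in 13 and 15 of 21 alternatives. Pfkfb3, the form with the highest kinase activity, was at 5.12, 5.86 and 7.51 CPM and then at 7.57, 6.16, 7.23 and 7.70 CPM, with 0.25 (SE 0.117, adjusted p = 0.0953), and Pfkfb2 had -0.17 (SE 0.154, adjusted p = 0.386).

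In triose formation, Tpi1 was at 617, 654 and 855 CPM with suffix _120519 and at 508, 514, 494 and 494 CPM with suffix _290419, a fall of 0.41 on the log2 scale (SE 0.0741, adjusted p = 0.000314) without overlap. Aldoa fell by 0.21 (SE 0.0663, adjusted p = 0.0162), also without overlap, from 719.6, 783 and 939 CPM to 679.8, 692, 649 and 707 CPM. The second Aldoa row (ENSMUSG00000114515) covers chr7:126800790-126809108 of GRCm38, upstream of the main row on the same strand. It was at 2.14, 3.26 and 3.65 CPM and then at 2.43, 2.90, 2.33 and 1.67 CPM, with -0.42 (SE 0.163, adjusted p = 0.0464). Aldoc rose by 0.84 (SE 0.325, adjusted p = 0.0437), from 0.123, 0.430 and 0.805 CPM to 0.714, 0.888, 0.699 and 0.938 CPM, a few counts per library. The Aldoc call held in 7 of 20 alternatives and was lost with DESeq2 (adjusted p = 0.102).

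Of lower glycolysis, Pgk1 and Eno1 fell, beside 23.5% of all genes lower, and the rest did not pass. Pgk1 was at 1619, 1695 and 2132 CPM with suffix _120519 and at 1500, 1407, 1488 and 1494 CPM with suffix _290419, a log2 fold change of -0.26 (SE 0.0691, adjusted p = 0.00619). Eno1 was at 873, 908 and 1136 CPM and then at 815, 818, 788 and 839 CPM, a log2 fold change of -0.19 (SE 0.0669, adjusted p = 0.0287). Gapdh was at 1239, 1330 and 1775 CPM and then at 1216, 1192, 1188 and 1232 CPM. The sets of each of these genes did not overlap, which is description only, as stated above. Gapdh had a log2 fold change of -0.18 (SE 0.0791) and an adjusted p of 0.0677. Without library 1 of untreated N-VEGF cells, the Gapdh value was -0.12 (SE 0.0407) with an adjusted p of 0.0154. Pkm at -0.09 (SE 0.0641), Pgam1 at -0.07 (SE 0.0772) and Eno2, the neuronal enolase, at 0.18 (SE 0.109) had adjusted p-values of 0.251, 0.505 and 0.186.

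Ldha, the subunit that favours lactate, was at 1413, 1563 and 2006 CPM with suffix _120519 and at 1212, 1214, 1201 and 1212 CPM with suffix _290419. The sets did not overlap, and the log2 fold change was -0.40 (SE 0.0781, adjusted p = 0.000592). Ldhb had -0.13 (SE 0.0651, adjusted p = 0.111), with overlap. The share of Ldhb per length was thus 7.5% to 9.12% with suffix _120519 and 9.28% to 10.8% with suffix _290419.

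Among the transporters, Slc2a1 was at 217, 221 and 233 CPM with suffix _120519 and at 198, 209, 194 and 199 CPM with suffix _290419, a fall of 0.16 (SE 0.0471, adjusted p = 0.0113). Slc16a1 fell by 0.20 (SE 0.0490, adjusted p = 0.00341), from 137, 139 and 151 CPM to 123, 121, 131 and 116 CPM. Neither gene overlapped between the suffixes. Slc16a3 was at 0.759, 0.882 and 1.57 CPM and then at 0.571, 0.947, 0.933 and 1.21 CPM, with -0.13 (SE 0.271, adjusted p = 0.724), and the untested Slc2a3 was at 0, 0.235 and 0.460 CPM and then at 0.214, 0.710, 0.466 and 0.335 CPM.

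The entry to the pathway, the pyruvate dehydrogenase subunits Pdha1 and Pdhb, and Mpc1 did not pass in the main fit. Of these, Hk1 passed without library 1 of untreated N-VEGF cells, in the libraries numbered 2 and in NLS-N-VEGF libraries alone. Hk1 at 0.10 (SE 0.0681, adjusted p = 0.240), Hk2 at -0.05 (SE 0.0526, adjusted p = 0.434) and Gpi1 at -0.01 (SE 0.0678, adjusted p = 0.933) were on either side of 0. The pyruvate dehydrogenase subunits Pdha1 and Pdhb had log2 fold changes of -0.00 (SE 0.0476) and 0.01 (SE 0.0497), and Mpc1 one of 0.01 (SE 0.0560). Mpc2, the partner of Mpc1 in the carrier, was at 19.4, 21.4 and 22.3 CPM with suffix _120519 and at 26.4, 24.5, 23.5 and 25.9 CPM with suffix _290419, a rise of 0.25 (SE 0.0606, adjusted p = 0.00335) without overlap.

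The suffix difference was also taken within each population. In NLS-N-VEGF libraries alone, 12 of 33 rows were called beside 35.1% of all genes, and in N-VEGF libraries alone 6 of 33 beside 25.4%. In the former the log2 fold change was -0.75 for Pdk1, -0.41 for Pfkl, -0.33 for Tpi1, -0.38 for Ldha and 0.87 for Pdk4, and all 5 passed. In the latter it was -1.16 for Pdk1, -0.71 for Pfkl, -0.48 for Tpi1 and 1.17 for Pdk4, which passed, and -0.41 for Ldha with an adjusted p of 0.0634. Over the libraries numbered 2, where 19 of 33 rows were called beside 41.5% of all genes, the values were -0.91 for Pdk1, -0.51 for Pfkl, -0.35 for Tpi1, -0.33 for Ldha and 1.11 for Pdk4, and all passed. Without library 1 of untreated N-VEGF cells they were -0.93, -0.52, -0.36, -0.34 and 0.91 in the same order, and all passed.

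Promoter sequence was examined because HIF targets are among the members. Some of them fell with suffix _290419, such as Pdk1 and Ldha, while Pfkfb4 rose. A part of HIF in the suffix difference was not tested. The motifs ACGTG and GCGTG, the core of the element that HIF binds, were searched on both strands in RefSeq windows of 300 bases (GRCm38.p6), from 250 bases before to 50 after each start. A palindrome such as CACGTG counts once for each strand. Windows were found for 32 of the 33 members, not for Slc2a3, and 29 of them (90.6%) held a match in at least 1 window, against 67.2% of the 9870 tested genes with a window and 46.7% of all 27025 genes. Members have more windows per gene, and by window the shares were 75% of 52, 61.5% of 12543 and 43.8% of 32851. By direction, 9 of 10 members that fell, 6 of 6 that rose and 14 of 16 that did not pass held one. With nearly all members holding a match, these counts cannot separate the directions. Tpi1, which fell, had none in its window. The stretches below are from genes that fell, with Pdk4, which rose, for comparison, and capitals mark the matched letters on the strand of the gene.
Pgk1, chrX:106186938-106186967: gcgtcgtgcaggACGTGacaaatggaagta
Ldha, chr7:46845745-46845774: ggcccagcctacACGTGggttcccgcacgt
Slc2a1, chr4:119108697-119108726: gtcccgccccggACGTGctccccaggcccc
Pfkl, chr10:78009889-78009918: atttgtagactgGCGTGcgctccgcctttc
Pdk1, chr2:71873210-71873239: ccgcctacggggGCGTGgttccagcgaggg
Pdk4, chr6:5496332-5496361: gttgtggagaggGCGTGgaggtagataaaa
Pgk1, Ldha and Slc2a1 carry the ACGTG form, at 150, 47 and 36 bases before the start. Pfkl and Pdk4 each have a single match, of the GCGTG form, and the matches of Pdk1 are of that form too. On either strand the ACGTG form also lies in windows of Pdk3 and Aldoc, which rose, and of Hk2 and Pkm, which did not pass. The form therefore does not separate the directions. A match describes the letters only, and no binding was measured.

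Genes around the pathway were read from lists in the same suffix comparison, where 45.6% of all genes were called, 22.2% higher and 23.5% lower. The counts below are to be read against those shares, and nothing particular to a list follows from them. The rest of the pyruvate dehydrogenase complex had 3 of 6 tested genes lower and none higher, and all 3 belong to the phosphatase system that switches the enzyme back on. Pdp1, a catalytic phosphatase subunit, was at 0.625 of its level (log2 fold change -0.68, SE 0.0767), Pdpr, the regulatory subunit, at 0.591 (-0.76, SE 0.0881) and Pdp2 at 0.851 (-0.23, SE 0.0648). The median of that list was -0.16.

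Of 15 tested HIF targets outside glycolysis, 7 were lower and 1 higher, beside 23.5% and 22.2% of all genes, with a median of -0.20 beside 0.01. Ndrg1 at -0.77 (SE 0.0731), Mxi1 at -0.65 (SE 0.0649) and Bnip3 at -0.65 (SE 0.0939) had the largest falls, and Hmox1, the haem oxygenase, rose by 0.33 (SE 0.0735). Among the glucose sensors, Txnip, an inhibitor of glucose uptake that is transcribed when glucose is plentiful, fell by 2.17 (SE 0.181) and its relative Arrdc4 by 1.55 (SE 0.154), while Mlxip rose by 0.20. Txnip was at 59.1, 58.2 and 11.2 CPM in untreated NLS-N-VEGF cells, the last being the suffix _290419 library, and at 19.9, 14.7 and 7.93 CPM after dox. N-VEGF cells gave 62.7, 62.5 and 9.44 CPM untreated and 37.0, 26.1 and 6.56 CPM after dox. Txnip was thus lower with dox in all 6 pairs, with a mean log2 fold change of -1.27 (SE 0.535, adjusted p = 1). Blocking by replicate, it passed at -1.17 (SE 0.142, adjusted p = 0.000315), as did Arrdc4 at -0.79 (SE 0.133, adjusted p = 0.00759). In NLS-N-VEGF cells alone the block gave Txnip -1.45 (SE 0.207, adjusted p = 0.00444), in N-VEGF cells -0.90 (SE 0.195, adjusted p = 0.105), and these effects differed by -0.55 (SE 0.284, adjusted p = 1).

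**Figure D5:**
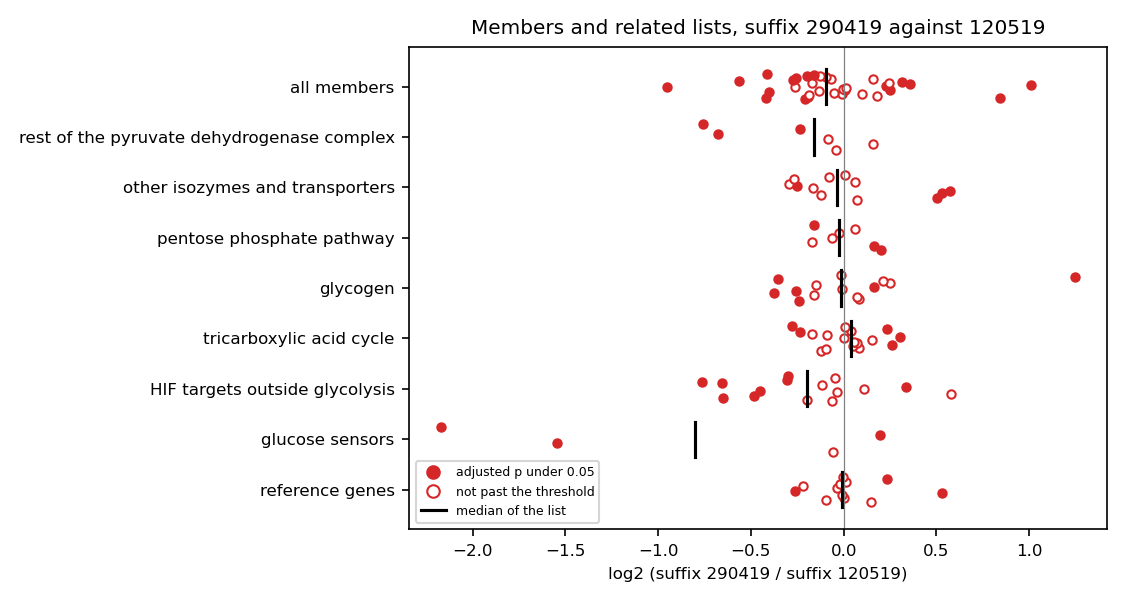
Fitted log2 ratio of suffix _290419 to suffix _120519 for each tested gene of the members and of 8 related lists. Filled points passed the adjusted threshold and black bars are list medians. The members' median is -0.09, and the lowest points of the plot are Txnip and Arrdc4 among the glucose sensors.

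Other branches of glucose use split between directions, again beside 45.6% of all genes called. The pentose phosphate pathway had 2 of 7 genes higher (G6pdx and Pgd) and 1 lower (Tkt), with a median of -0.02. Glycogen metabolism had 2 of 14 higher, led by the muscle phosphorylase Pygm at 1.25 (SE 0.209), and 4 lower, with a median of -0.01. The tricarboxylic acid cycle had 3 of 17 higher and 2 lower (median 0.04), and gluconeogenesis 1 higher and 1 lower of 2. Other isozymes and transporters had 3 of 12 higher (Eno4, Eno3 and Bpgm) and 1 lower (Gpd2). Among the reference genes, Hprt rose by 0.53 (SE 0.0613) and Polr2a fell by 0.26 on the log2 scale (SE 0.0682). In the dox and population comparisons no gene of the lists named here was called by edgeR without the block. With the replicate block the mean dox effect also passed for Adm, the adrenomedullin gene and a HIF target, at -0.57 (SE 0.105, adjusted p = 0.0158), beside Txnip and Arrdc4.

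Some marker sums differed between the suffixes. Blood cell markers summed to 2.88 to 4.21 CPM with suffix _120519 and to 5.49 to 6.34 CPM with suffix _290419, most of it Cd68, and neural markers to 20.6 to 25.7 and 24.5 to 33.2 CPM. Epithelial markers summed to 2.03 to 3.32 and 3.32 to 3.79 CPM. Fibroblast markers had 4 of 10 tested genes higher and 4 lower, with sums of 11480 to 14340 and 12130 to 13660 CPM. With the replicate block, the mean dox effect passed for Col5a2 (0.61) and Pdgfra (-0.49) among them. Their part in the difference of the members was not tested. In bulk libraries, fewer cells of a type and less RNA per cell cannot be told apart.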

How the data were processed

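Read counts per gene were deposited by the authors as 1 table of 12 libraries. Per the labels and the study's methods, reads of 80 bases were checked with FastQC 0.11.5, trimmed with Trim Galore and cutadapt 1.10, aligned to GRCm38 with TopHat2 2.1.0 and Bowtie2 2.2.6 and counted with HTSeq 0.6.1; the authors' own testing used DESeq2 1.18.1. The counts are raw, and the libraries came from a kit that does not mark strand.

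Counts were analysed with edgeR 4.0.16 in R 4.3.3, with TMM scaling, its default filter on low counts (13608 genes kept), group means over all 12 libraries and the quasi-likelihood F test, with Benjamini-Hochberg adjustment over all genes tested and a threshold of 0.05. The suffix was tested with the group as a further term. CPM values use TMM-scaled totals. Depth ran from 13549331 to 18982127 counts, so that 3 counts correspond to 0.158 to 0.221 CPM (counting error only). Exon lengths came from GENCODE M21. Both models were tested on simulated data. Alternatives were DESeq2 1.42.0, RLE scaling, library size alone, looser and stricter filters, subsets by suffix, number or population, each library left out, and a replicate block of number and suffix together.

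The block is a pairing that the labels give only as shared numbers. Deviations from the group means correlated in 18 of 18 pairs of libraries that share number and suffix (mean r 0.59, from 0.4 to 0.83, over 12058 genes), against a mean of -0.25 in the 36 other pairs, so blocked values stand beside results they change. The members and lists were chosen with earlier results of these data known. Values by library (the lowest, median and highest of 8, and each of 4) are given for members past the threshold and a set of core genes, and fold changes otherwise for the 3 highest and 3 lowest log2 fold changes among members with a mean of at least 1 CPM. Some values of the reference gene list are not reported here.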

Additional observations from a re-analysis of the deposited data

Results flagged for a closer look

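Gaps between 1 library and the rest of its suffix were checked for 68 sets of values, and chance flags about 1 in 20. The check marked 13, of which 10 had library 1 of N-VEGF cells without dox far above the other 7 libraries with suffix _120519. In the first steps these were Hk1 at 100.2 CPM (others 71.3 to 84.9), Gpi1 at 807 CPM (others 609 to 683), Pfkl at 255 CPM (others 185 to 213) and Aldoa at 939 CPM (others 719.6 to 805). In triose formation and lower glycolysis they were Tpi1 at 855 CPM (others 617 to 669), Gapdh at 1775 CPM (others 1239 to 1393), Pgk1 at 2132 CPM (others 1619 to 1832), Pgam1 at 1529 CPM (others 1069 to 1202) and Eno1 at 1136 CPM (others 873 to 934). The last was Ldha at 2006 CPM (others 1413 to 1632). The same library was the highest of the 8 for 17 of 33 tested rows.

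Within suffix _290419, 3 values, in 2 libraries, stood below the other 3 of their gene. Pgk1 was at 1407 CPM in NLS-N-VEGF cells with dox (others 1488 to 1500), and Pdha1 at 163.6 CPM in the same library (others 175 to 177). Ldha was at 1201 CPM in N-VEGF cells without dox (others 1212 to 1214), a gap of a few CPM that stands out because the other 3 were nearly equal.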

How the results depend on the processing

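With the replicate block, 0 members were called in each of the 6 dox and population comparisons, as without it. The block moved the count over all genes from 3 to 17 in NLS-N-VEGF cells, from 5 to 15 in N-VEGF cells and from 8 to 77 for the mean, with Txnip, Arrdc4 and Adm the only genes of the related pathway lists called. For dox in NLS-N-VEGF cells, in N-VEGF cells and for the mean, the counts over all genes were 9, 7 and 16 by DESeq2, 53, 36 and 77 with no filter beyond 1 count, and 109, 16 and 135 with suffix _120519 alone. For the suffix, libraries numbered 2 pair within each group, and that fit called 19 members, beside 41.5% of all genes.

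Leaving out each library in turn, 0 members were called in all 6 comparisons. The members' median ranged from -0.0708 to 0.0165 for dox in NLS-N-VEGF cells, from -0.128 to 0.0118 in N-VEGF cells, from -0.0771 to 0.00541 for the mean and from -0.0483 to 0.142 for the difference. It ranged from -0.0266 to 0.0322 between populations with dox and from -0.117 to 0.0658 without dox, so the sign of these 6 medians depended on single libraries. For the mean it turned positive without library 1 of N-VEGF cells without dox. In the suffix comparison the median stayed between -0.110 and -0.0447 and the calls between 11 and 20, the lowest without library 2 with suffix _290419 of either group without dox. Of all genes, 35.4% to 51.6% were called in the same fits. The share was 38.1% and 37.8% in those with 11 members (NLS-N-VEGF, then N-VEGF library left out) and 42.9% in the one with 20. With suffix _120519 alone, 1 member (Pdk2) was called for the mean dox effect. For the suffix, N-VEGF libraries alone called 6 members, beside 25.4% of all genes, and NLS-N-VEGF libraries alone gave a median of -0.0175. Pdk1, Pdk4, Pfkl, Pfkm and Tpi1 passed in 21 of 21 alternatives, while Pdk3 passed in 9 and the second Aldoa row in 6. No call turned direction. The suffix is not explained in the labels, and genes under a few CPM are limited by depth.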
